A study of Mus musculus with 26 samples.

Results

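J1 mouse embryonic stem cells in which Mettl14 had been knocked down were compared after 8 h and at 0 h. The comparison used 4 of the 26 Affymetrix Mouse Gene 2.0 ST arrays of the study. These were the 2 arrays titled as Mettl14 knockdown at 8 h and the 2 titled as the same knockdown at 0 h, taken from a time course of 18 arrays by their titles. J1 is an established line of mouse embryonic stem cells. The other time-course groups, each with 2 arrays, were Mettl14 knockdown at 4 h, Mettl3 knockdown at 0, 4 and 8 h, and cells given a scramble control sequence at 0, 4 and 8 h. Cells of every group were grown in serum with leukaemia inhibitory factor above irradiated mouse embryonic fibroblasts, per the labels' protocols, so fibroblast RNA could be present in each. The labels count the time in hours of incubation with the hairpin construct, and name no other agent. The knockdown is described as short hairpin RNA (shRNA) from a lentivirus with puromycin selection, without saying whether the line was a pool or a clone. Per the series title, the study asked how methylation of RNA bears on the stability of transcripts of developmental regulators.

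METTL14 and METTL3 together form the core of the enzyme that writes N6-methyladenosine (m6A) onto messenger RNA. METTL3 carries the catalytic site, and METTL14 holds the RNA substrate. Proteins of the YTH family read the mark, and several of them are known to hasten the decay of the transcripts they bind. In embryonic stem cells the mark is known from transcripts of many regulators of pluripotency and of lineage choice. Transcripts of immediate early genes, of signalling feedback inhibitors and of zinc finger factors are usually short-lived, and those of metabolic enzymes and ribosomal proteins are usually long-lived.

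The treatment protocol also lists small interfering RNA target sequences against Mettl14. They are shown because they identify the transcript that was targeted. The labels do not say whether any of the arrays described here came from cells that received them.
Mettl14 siRNA target 1: ccggatgtacagaggaaat
Mettl14 siRNA target 2: gggaactcatcagactaaa
Mettl14 siRNA target 3: gcacctcggtcatttatat

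The deposited values were log2 signals, from here on called the signal, in which a difference of 1 is a 2-fold change. The 2 arrays of a group correlated at 0.987 to 0.992 (Pearson's r over 41345 probe sets) in the 9 groups, and none of the pairs was identical. Groups were compared with limma, and a gene was called when its p-value, adjusted by Benjamini-Hochberg over the 14787 genes tested, was under 0.05. Values after ± are limma's standard error of a log2 change. The titles call the arrays biological replicates without placing them in separate experiments, so p-values measure the spread between these arrays.

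The signal of Mettl14 was low before the time course began. It was 7.28 and 7.51 at 0 h, 7.01 and 6.45 at 4 h, and 6.39 and 6.56 at 8 h in Mettl14 knockdown. In scramble it was 9.08 and 9.10 at 0 h and 9.14 and 9.12 at 8 h, and in Mettl3 knockdown 8.997 and 8.994 at 0 h and 8.93 and 8.94 at 8 h. Each array labelled Mettl14 knockdown lay below each array of the other treatments. Within the knockdown Mettl14 changed by a further -0.92 ± 0.13 from 0 to 8 h (adjusted p = 9.27e-05), with no overlap between the times. The probe set listed with both Mettl3 and Tox4 gave 10.56 and 10.52 at 0 h and 10.24 and 10.17 at 8 h in Mettl14 knockdown, and a mean of 8.03 at 8 h in Mettl3 knockdown.

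By 8 h, 2836 genes had fallen (19.2% of those tested) and 5457 stood higher (36.9%). The falls were the larger changes. A call together with at least a 2-fold change was reached by 559 genes that were lower (3.78%) and by 28 that were higher (0.189%). The single changes ran from -5.81 to 1.39 on the log2 scale. RMA, the authors' normalization, gives every array the same distribution of probe values, so a fall shared by most transcripts cannot appear as one. The median of all genes tested was 0.13 as deposited. It moved by -0.40 when the arrays were shifted to equal medians of a glycolysis and cytoskeleton list, and by -0.59 when they were shifted to equal medians of the cytosolic ribosomal protein list. These shifts equalised the median signal of a list on each array, not the median of its genes' changes. After its own shift the glycolysis list had a median change of -0.07 and the ribosomal list of -0.35, so neither list was held constant gene by gene. Of the genes called, 65.8% were higher on the deposited scale, 8.24% after the first shift and 0.98% after the second. Words such as "higher" in the rest of the text therefore mean higher relative to the other genes of the array. The count of 28 genes with at least a 2-fold rise was 58 without replicate 1 of the 0 h group and 54 without replicate 1 of the 8 h group.

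More genes were called from 0 to 4 h than from 4 to 8 h. Between 0 and 4 h, 1913 genes fell (12.9%) and 4892 stood higher (33.1%), and between 4 and 8 h 1003 fell (6.78%) and 176 stood higher (1.19%). The 3 comparisons share arrays and are given side by side. The count of 1179 genes called between 4 and 8 h (7.97%) was 544 without replicate 1 and 486 without replicate 2 of the 4 h group, and 416 without replicate 1 of the 8 h group.

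**Figure D1:**
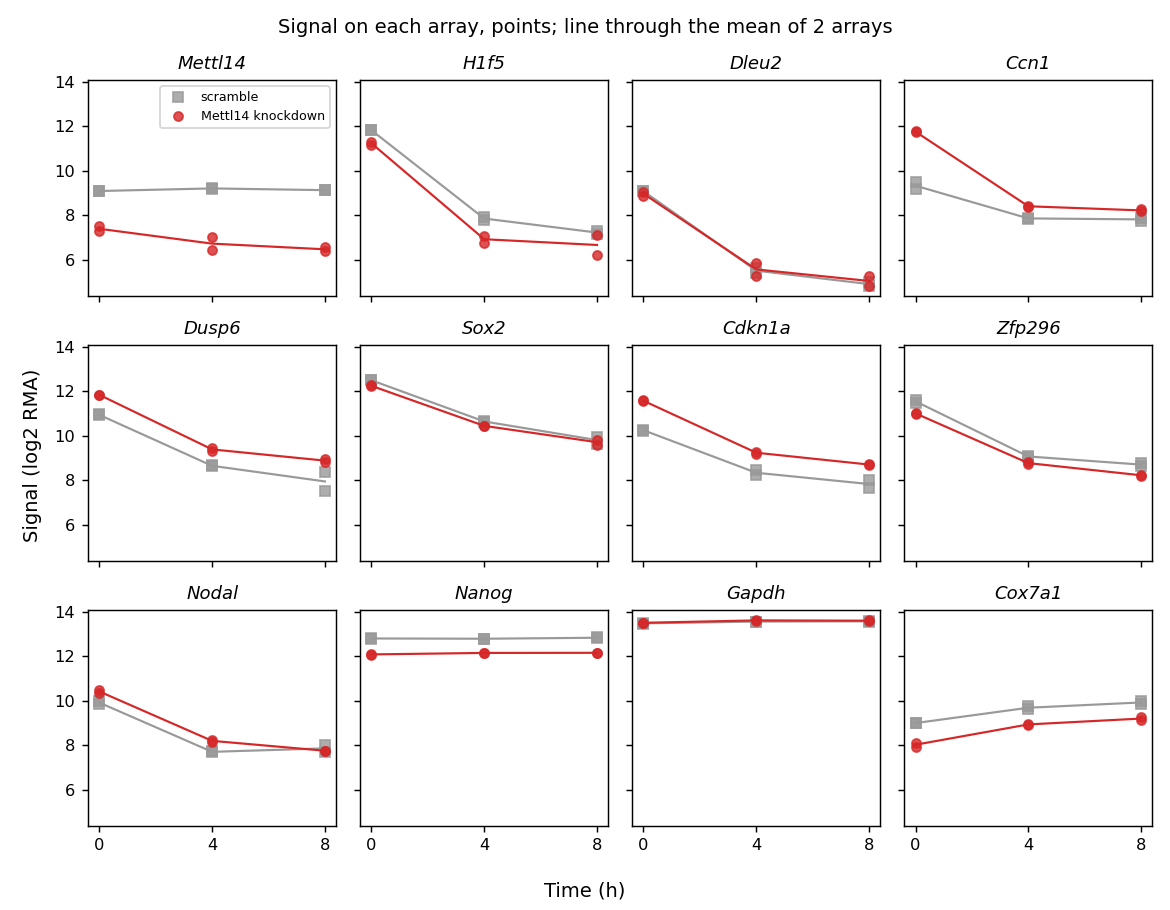
Signal (log2 RMA) of 12 genes on each array at 0, 4 and 8 h, with Mettl14 knockdown as red circles and scramble as grey squares, 2 arrays a group, and a line through the group means. Mettl14 is low in the knockdown throughout, H1f5, Dleu2, Ccn1, Dusp6, Sox2, Cdkn1a, Zfp296 and Nodal fall mostly before 4 h, Nanog and Gapdh stay near their 0 h signal, and Cox7a1 is higher at 8 h.

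The deepest falls on the array included genes named as microRNAs, which the rule for named genes left out. They were singled out after their values had been seen. The microRNA sequences below are those of the genes described here that RefSeq lists, 5′ to 3′, with the seed, bases 2 to 8, in capitals. The seed is the stretch with which a microRNA pairs to its targets. None of these seeds is shared by another of the sequences shown.
mmu-miR-290a-5p: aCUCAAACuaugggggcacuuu
mmu-miR-290a-3p: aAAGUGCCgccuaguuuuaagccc
mmu-miR-18a-5p: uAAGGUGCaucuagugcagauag
mmu-miR-15a-5p: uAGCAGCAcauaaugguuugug
mmu-miR-382-5p: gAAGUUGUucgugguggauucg
mmu-miR-453: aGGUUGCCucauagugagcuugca

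Of 147 microRNA-named genes tested, 64 fell (43.5%, against 19.2% of all genes), 9 stood higher and 74 were not called. Their median log2 change was -0.33, against 0.13 over all genes. The RNA was poly(A)-purified, and which part of the host or precursor transcript each probe set reads is not given in the sources used here, so these signals are not levels of mature microRNA. Mir290a belongs to the cluster that dominates microRNA expression in embryonic stem cells, on chromosome 7. Its signal was 10.21 and 10.10 at 0 h and 7.27 and 7.78 at 8 h, a fall of 6.19-fold (adjusted p = 2.34e-07). Mir18, of the growth-promoting Mir17 cluster on chromosome 14, went from 8.78 and 8.62 to 5.71 and 5.85, a change of -2.92 ± 0.11 (adjusted p = 2.92e-09). Both times were well apart for each of the pair.

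Mir15a lies inside the long non-coding host gene Dleu2 on chromosome 14, and the pair fell together. Mir15a went from 9.38 and 8.86 at 0 h to 6.17 and 6.70 at 8 h, 6.44-fold lower, and Dleu2 from 9.07 and 8.88 to 4.83 and 5.27, a change of -3.92 ± 0.18. The 8 h signals of Mir18 and Dleu2, and of Mir382, H2ac15 and AF357399 described next, lay below 6.07, the lowest mean signal of a gene tested. These genes passed the filter through brighter arrays, and whether the 8 h signals exceed background is not given in the sources used here. Mir382 and Mir453 lie in the imprinted microRNA cluster of chromosome 12 and changed by -2.41 ± 0.11 and -3.58 ± 0.25 on the log2 scale. The 13 tested genes of the Mir297a, Mir466, Mir467 and Mir669 families, near-identical repeats of which no mature sequence was matched, had log2 changes from -4.82 (Mir669g) to -1.09, and 13 of 13 were called lower. Mir5099, the deepest fall, went from 13.94 and 13.98 to 8.01 and 8.28. The same changes in scramble were -2.05 for Mir290a, -2.98 for Mir18, -2.78 for Mir15a and -5.80 for Mir5099.

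Replication-dependent histone genes had the lowest median change of the gene lists. These genes encode the histones that package newly copied DNA, and their messenger RNAs end in a stem-loop in place of a poly(A) tail. Of 25 listed genes 16 passed the filter on low signal. Of these, 14 were called lower (87.5%, against 19.2% of all genes), 2 were not called, and none was called higher. The median log2 change was -2.32. The linker histone gene H1f5 gave 11.30 and 11.17 at 0 h and 6.21 and 7.13 at 8 h, 23.7-fold lower (adjusted p = 2.31e-08). H2ac15 went from 9.52 and 9.33 to 4.72 and 5.71, H2bc12 from 10.55 and 10.13 to 6.30 and 6.94, and H2ac1 from 10.65 and 10.69 to 7.04 and 6.92. No 8 h array of these 4 genes reached the 0 h range, which was a condition for naming them. H2ac21 changed by -3.30 ± 0.13, H2bc3 by -3.25 ± 0.09, and H2ac10 by -2.47 ± 0.11. H2bc22 and H4c9 were the members not called, at 0.03 and 0.24.

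The falls of the histone genes were nearly complete at 4 h. The list's median log2 change was -2.50 from 0 to 4 h and -0.08 from 4 to 8 h, and no member was called between 4 and 8 h. Npat, the activator of histone gene transcription, fell from 10.75 and 10.70 to 8.25 and 8.51, with 4 h arrays in between at 9.29 and 9.33. Histone gene copies are near-identical, so probes of a member can bind RNA of another and the single values are uncertain. Poly(A) purification also removes most of their RNA.

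Most histone genes that fell had a CCAAT box upstream, and some had TATAAA or the octamer. The 250 bases before the transcription start of 3 of them are printed from RefSeq (GRCm38.p6, plus strand) because each holds the octamer that marks H2A and H2B genes. Capitals mark matches of 3 motifs, each searched on both strands, with none overlapping another. The first is the CCAAT box, searched by those letters. The TATA box was searched as TATAAA at any distance from the start. In H2bc12 the match lies on the other strand, 198 bases before the start. The octamer, which binds OCT factors, was searched as ATTTGCAT.
H2bc3, chr13:23746484-23746733: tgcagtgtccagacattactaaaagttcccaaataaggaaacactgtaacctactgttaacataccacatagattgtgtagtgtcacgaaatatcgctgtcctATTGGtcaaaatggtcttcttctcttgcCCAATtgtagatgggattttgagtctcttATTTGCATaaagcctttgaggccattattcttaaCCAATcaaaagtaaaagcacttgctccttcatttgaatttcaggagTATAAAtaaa
H2bc12, chr13:22035571-22035820: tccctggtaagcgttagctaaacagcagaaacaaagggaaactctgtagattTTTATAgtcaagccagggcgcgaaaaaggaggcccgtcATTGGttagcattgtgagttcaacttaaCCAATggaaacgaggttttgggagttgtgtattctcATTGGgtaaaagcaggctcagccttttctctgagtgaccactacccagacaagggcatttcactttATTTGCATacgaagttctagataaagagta
H2ac1, chr13:23934187-23934436: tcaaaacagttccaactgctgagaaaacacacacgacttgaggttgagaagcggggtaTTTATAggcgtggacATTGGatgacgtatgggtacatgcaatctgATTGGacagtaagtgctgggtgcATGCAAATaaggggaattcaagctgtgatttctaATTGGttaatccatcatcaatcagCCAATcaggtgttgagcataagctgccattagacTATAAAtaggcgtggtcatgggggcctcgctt

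Of the 14 histone genes called lower, 13 had an upstream window in the table. A CCAAT box was in 12 of the 13 windows (92.3%), the letters TATAAA in 7 (53.8%) and the octamer in 6 (46.2%). Over the 14518 windows of the genes tested, the shares were 34.7%, 7.15% and 1.23%. Over the 500 windows of genes that fell at least 2-fold they were 39.4%, 9.6% and 3.2%, and over the 5525 windows of genes that stood higher they were 34.8%, 6.3% and 0.995%. These are matches of letters, and no binding was measured. No share was computed for the histone genes not called, so these shares do not tie the motifs to the falls.

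Most immediate early and fast-turnover regulators fell. Of 43 tested, 33 fell (76.7%, against 19.2% of all genes), 1 (Maff, 0.46) stood higher and 9 were not called. The share higher was 2.33%, against 36.9% of all genes, and the median log2 change was -0.89. Ccn1, a secreted matricellular protein switched on by growth factors and stretch, gave 11.77 and 11.74 at 0 h, 8.39 and 8.42 at 4 h, and 8.26 and 8.18 at 8 h. It was 11.6-fold lower at 8 h (adjusted p = 2.89e-10). Its relative Ccn2 went from 10.83 and 10.81 to 7.91 and 8.15, 6.91-fold lower. The 0 h and 8 h arrays of both genes did not overlap, which was a condition for naming them.

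Other members covered several functions. Nr4a1, an orphan nuclear receptor, fell from 10.50 and 10.59 to 8.70 and 8.74. Klf6, a zinc finger transcription factor, changed by -1.99 ± 0.09 and Sgk1, a growth factor-regulated kinase, by -1.76 ± 0.08. Jun, a subunit of the AP-1 factor, fell from 9.66 and 9.45 to 8.56 and 8.50, which was 2.04-fold. Ier3, an early response gene linked to cell survival, fell from 9.17 and 9.18 to 7.74 and 7.62. Fos, Egr2 and Egr3 were not called, at 0.09, 0.02 and -0.01.

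Feedback inhibitors of fibroblast growth factor (FGF) signalling fell with them. This pathway drives ES cells out of the naive state, and its activity induces its own brakes. Of 18 genes tested 14 fell (77.8%, against 19.2% of all genes), 1 (Etv4, 0.56) stood higher and 3 were not called. The share higher was 5.56%, against 36.9% of all genes, and the median log2 change was -1.13. Dusp6, a phosphatase that inactivates ERK, gave 11.84 and 11.84 at 0 h, 9.33 and 9.45 at 4 h, and 8.83 and 8.94 at 8 h. It was 7.75-fold lower at 8 h (adjusted p = 1.40e-07). The Sprouty inhibitors Spry2, Spry4 and Spry1 changed by -2.59 ± 0.08, -2.17 ± 0.13 and -1.75 ± 0.10. The phosphatases Dusp1 and Dusp5 changed by -2.35 ± 0.08 and -1.98 ± 0.08. The ligand itself, Fgf4, went from 10.66 and 10.68 to 9.41 and 9.52, 2.31-fold lower.

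Genes of the TGF-beta superfamily pathways fell in part. In the Nodal and TGF-beta list 12 of 18 fell (66.7%, against 19.2% of all genes) and 3 stood higher (16.7%, against 36.9%). The median was -0.43. Nodal, the ligand that sustains the primed state and patterns mesoderm and endoderm, gave 10.35 and 10.50 at 0 h and 7.76 and 7.76 at 8 h, 6.32-fold lower. The signal transducer Smad2 went from 10.73 and 10.73 to 9.81 and 9.84, 1.88-fold lower, and the repressor Skil was 2.08-fold lower. In the BMP list 10 of 16 fell (62.5%) and none stood higher, with a median of -0.26. Bmp4, the ligand that works with leukaemia inhibitory factor to hold ES cells undifferentiated, fell from 9.64 and 9.55 to 7.60 and 8.05. The inhibitors Smad7 and Bambi changed by -1.72 ± 0.09 and -1.14 ± 0.08. Id2, a BMP target that blocks differentiation factors, went from 11.97 and 12.00 to 10.46 and 10.48. The 0 h and 8 h arrays of these genes lay apart, which with 2 arrays a group only describes the arrays.

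In the Wnt list 11 of 22 fell (50%, against 19.2% of all genes) and 4 stood higher (18.2%, against 36.9%). The median was -0.32. The receptor Fzd7 changed by -1.63 ± 0.10, the R-spondin receptor Lgr4 by -1.21 ± 0.05, and the scaffold Axin1, which restrains beta-catenin, by -0.86 ± 0.07. Of the 12 genes of the Myc network 6 fell (50%) and 4 stood higher (33.3%, near the 36.9% of all genes). The median of -0.10 turned to 0.03 when the arrays were quantile-normalised again. Myc, a driver of growth, fell from 10.03 and 9.999 to 8.02 and 8.15, and Mycn, its relative, from 9.90 and 9.91 to 8.42 and 8.42. Both pairs of times were clearly separate. Mga, a Myc antagonist, changed by -0.76 ± 0.05.

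Pluripotency genes moved in both directions. Of 35 core and naive genes tested of 36 on the array, 13 fell, 9 stood higher and 13 were not called, and the median was -0.06. The shares were 37.1% lower, against 19.2% of all genes, and 25.7% higher, against 36.9%. Sox2, a core pluripotency factor, gave 12.26 and 12.23 at 0 h, 10.44 and 10.45 at 4 h, and 9.60 and 9.83 at 8 h, 5.78-fold lower (adjusted p = 2.29e-09). Nanog, another core factor, gave 12.06 and 12.11 at 0 h and 12.15 and 12.16 at 8 h, and was not called (0.07 ± 0.05, adjusted p = 0.227). Pou5f1, which encodes OCT4, gave 8.43 and 8.78 and then 8.44 and 8.55, with overlapping times, and was not called either. On the deposited scale Sox2 alone of the 3 core factors was called lower. The Pou5f1 signal was far dimmer than those of Sox2 and Nanog and its 0 h arrays lay apart, so its change is poorly measured. The list shifts lower every gene's change alike, that of Nanog included.

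The Krüppel-like factors of the naive network fell. Klf5 went from 12.10 and 12.00 to 10.54 and 10.64, Klf2 from 9.29 and 9.15 to 8.13 and 8.08, and Klf4 from 8.69 and 8.67 to 7.49 and 7.72, each without overlap. The DNA demethylase Tet2 changed by -1.17 ± 0.11 and the naive marker Zfp42 by -0.72 ± 0.06. Tcl1, a co-activator of AKT signalling in ES cells, stood higher, from 9.24 and 9.19 to 10.09 and 10.08, and remained called at 0.29 after the ribosomal shift. In the list of primed epiblast genes 7 of 14 fell (50%, against 19.2% of all genes) and 3 stood higher (21.4%, against 36.9%). The median was -0.32. The transcription factors Zic2, Otx2, Sox4 and Pou3f1 changed by -1.36 ± 0.07, -1.22 ± 0.14, -1.23 ± 0.12 and -1.01 ± 0.09.

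Lineage lists held calls in both directions, beside 19.2% of all genes lower and 36.9% higher. The neuroectoderm list had 6 of 23 lower and 9 higher, the mesoderm and primitive streak list 4 of 24 lower and 3 higher, the endoderm list 2 of 18 lower and 7 higher, and the trophoblast list 3 of 19 lower and 6 higher. Of 36 Hox genes on the array 18 passed the filter, of which 7 stood higher and none was lower. The shares higher, 39.1% for neuroectoderm, 38.9% for endoderm and for Hox genes and 31.6% for trophoblast, were near that of all genes, and the mesoderm share was 12.5%. Single members moved further, such as Zic2 of the neuroectoderm list and Bmp4 of the mesoderm list. The medians of these 5 lists, from 0.01 to 0.19, turned negative under both list shifts.

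Growth arrest and cell death genes fell in part. In the p53 list 15 of 30 fell (50%, against 19.2% of all genes) and 4 stood higher (13.3%, against 36.9%). The median was -0.16. Cdkn1a, which encodes the CDK inhibitor p21, went from 11.56 and 11.59 at 0 h to 8.73 and 8.69 at 8 h, 7.27-fold lower (adjusted p = 3.34e-09). Plk2, a stress-induced kinase, changed by -1.84 ± 0.10, Mdm2, the ubiquitin ligase that limits p53, by -1.37 ± 0.08, and Sesn2, a stress-induced inhibitor of mTORC1, by -1.43 ± 0.08. Among Bcl2 family and apoptosis genes 10 of 25 fell (40%) and 9 stood higher, the latter share (36%) near the 36.9% of all genes. The list held falls of the pro-death gene Bcl2l11, at -1.26 ± 0.10, and of the pro-survival gene Mcl1, at -0.76 ± 0.05.

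Cell cycle genes moved in both directions. Wee1, the kinase that holds CDK1 inactive before mitosis, gave 11.01 and 10.92 at 0 h, 9.23 and 9.24 at 4 h, and 7.72 and 8.17 at 8 h, 8.12-fold lower (adjusted p = 1.16e-09). Of 44 mitosis genes 24 fell and 7 stood higher (median -0.27). Fbxo5, an inhibitor of the anaphase-promoting complex, went from 10.26 and 9.98 to 7.57 and 7.72. The motor proteins Kif18a and Kif20b changed by -1.97 ± 0.13 and -1.86 ± 0.13, and the centriole kinase Plk4 by -1.34 ± 0.07. Of 39 replication genes 11 fell and 13 stood higher. The licensing factors Cdt1 and Cdc6 changed by -1.68 ± 0.08 and -1.15 ± 0.06. Of 25 G1 cyclins and CDK inhibitors 8 fell and 8 stood higher, with E2f3, an S-phase activator, lower at -1.60 ± 0.13. The shares lower were 54.5% for mitosis, 28.2% for replication and 32% for G1 genes, against 19.2% of all genes. The shares higher for replication (33.3%) and G1 genes (32%) were near the 36.9% of all genes.

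Zinc finger genes fell as a large class. Of 296 tested genes with names starting Zfp, out of 336 on the array, 191 fell (64.5%, against 19.2% of all genes), 18 stood higher and 87 were not called, with a median log2 change of -0.54. They made up 10.9% of the genes that fell at least 2-fold, 5.71% of the genes that fell less, 0.33% of the genes that stood higher, and 2.0% of all genes tested. Zfp296, a cofactor of reprogramming, gave 10.99 and 11.02 at 0 h and 8.20 and 8.25 at 8 h, 6.86-fold lower. Zfp84 went from 9.04 and 8.96 to 6.64 and 6.73, and Zfp599 from 10.27 and 10.13 to 7.82 and 8.06, without overlap. Zfp292 changed by -1.79 ± 0.10. The transcriptional regulators Cited2 and Tiparp changed by -2.62 ± 0.07 and -2.64 ± 0.16.

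Chromatin, transcription and decay genes moved in both directions. In the Polycomb and trithorax list 12 of 26 fell (46.2%, against 19.2% of all genes) and 3 stood higher (11.5%, against 36.9%). The histone methyltransferase Kmt2a was lower at -1.12 ± 0.10 and the Polycomb subunit Eed at -0.82 ± 0.04. Of 43 genes of the transcription machinery 10 fell (23.3%, near the 19.2% of all genes) and 20 stood higher (46.5%, against 36.9%). The falls included Tbp, the TATA-binding protein, from 10.60 and 10.51 to 9.49 and 9.60, Gtf2b, at -1.06 ± 0.07, and Cdk7, the kinase of TFIIH, at -0.94 ± 0.06. Of 54 genes of mRNA decay 18 fell and 18 stood higher, and the median was -0.03. The share of decay genes higher, 33.3%, was near the 36.9% of all genes, and the share lower was 33.3% against 19.2%. The RNA-binding repressor Pum2 changed by -1.64 ± 0.07. The deadenylase subunits Cnot4 and Cnot2 changed by -1.36 ± 0.04 and -0.94 ± 0.05, and the decapping cofactor Dcp1a by -1.03 ± 0.08.

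Among the m6A writers 4 of 8 fell (50%, against 19.2% of all genes) and none stood higher (against 36.9%). Beside Mettl14 these were Cbll1, a subunit of the writer complex, from 10.06 and 9.90 to 8.67 and 8.79, Rbm15, at -0.56 ± 0.08, and Wtap, the subunit that brings the enzyme to nuclear speckles, from 9.40 and 9.45 to 8.94 and 9.07. Of 11 readers and erasers 4 fell (36.4%) and 2 stood higher (18.2%). The helicase reader Ythdc2 went from 9.02 and 8.93 to 7.82 and 8.15, and the nuclear reader Ythdc1 from 11.46 and 11.49 to 11.15 and 11.13. Neither gene's times overlapped.

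Long non-coding RNAs and small nucleolar RNA hosts fell in 17 of 25 cases (68%, against 19.2% of all genes). In this list 2 stood higher (8%, against 36.9%), and the median was -0.33. The imprinting transcript Kcnq1ot1 went from 9.72 and 9.57 to 7.05 and 7.26, 5.6-fold lower. Neat1, the scaffold of paraspeckles, changed by -0.93 ± 0.08, and the snoRNA hosts Snhg5 and Snhg4 by -1.24 ± 0.11 and -0.996 ± 0.058. Malat1, an abundant nuclear RNA, changed by -0.17 ± 0.05 (adjusted p = 0.0116), and its direction turned to 0.19 when its probe sets were averaged. It was not called without replicate 1 of the 0 h group (-0.13, adjusted p = 0.0924) or of the 8 h group (-0.14, adjusted p = 0.0823). AF357399, a small RNA gene, fell from 9.25 and 8.42 to 5.19 and 5.91. Of 69 small nucleolar RNAs 17 fell and 24 stood higher (34.8%, near the 36.9% of all genes), and these too are not well measured after poly(A) purification.

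Stress lists held falls and rises, beside 19.2% of all genes lower and 36.9% higher. In the amino acid stress list 6 of 24 fell and 12 stood higher, and Slc38a2, an amino acid transporter, went from 12.81 and 12.85 to 10.80 and 10.83. In the unfolded protein response list 9 of 22 fell and 10 stood higher, with Xbp1, its transcription factor, lower at -1.58 ± 0.07. In the heat shock list 4 of 13 fell and 5 stood higher, with Hspa1b lower at -1.72 ± 0.16. In the NF-kB and interferon list 5 of 19 fell and 4 stood higher, with Nfkbia, the NF-kB inhibitor, lower at -1.47 ± 0.12 and Irf1 at -1.45 ± 0.06. The share higher in the heat shock list, 38.5%, was near that of all genes. Of 15 circadian genes 8 fell and 1 stood higher.

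**Figure D2:**
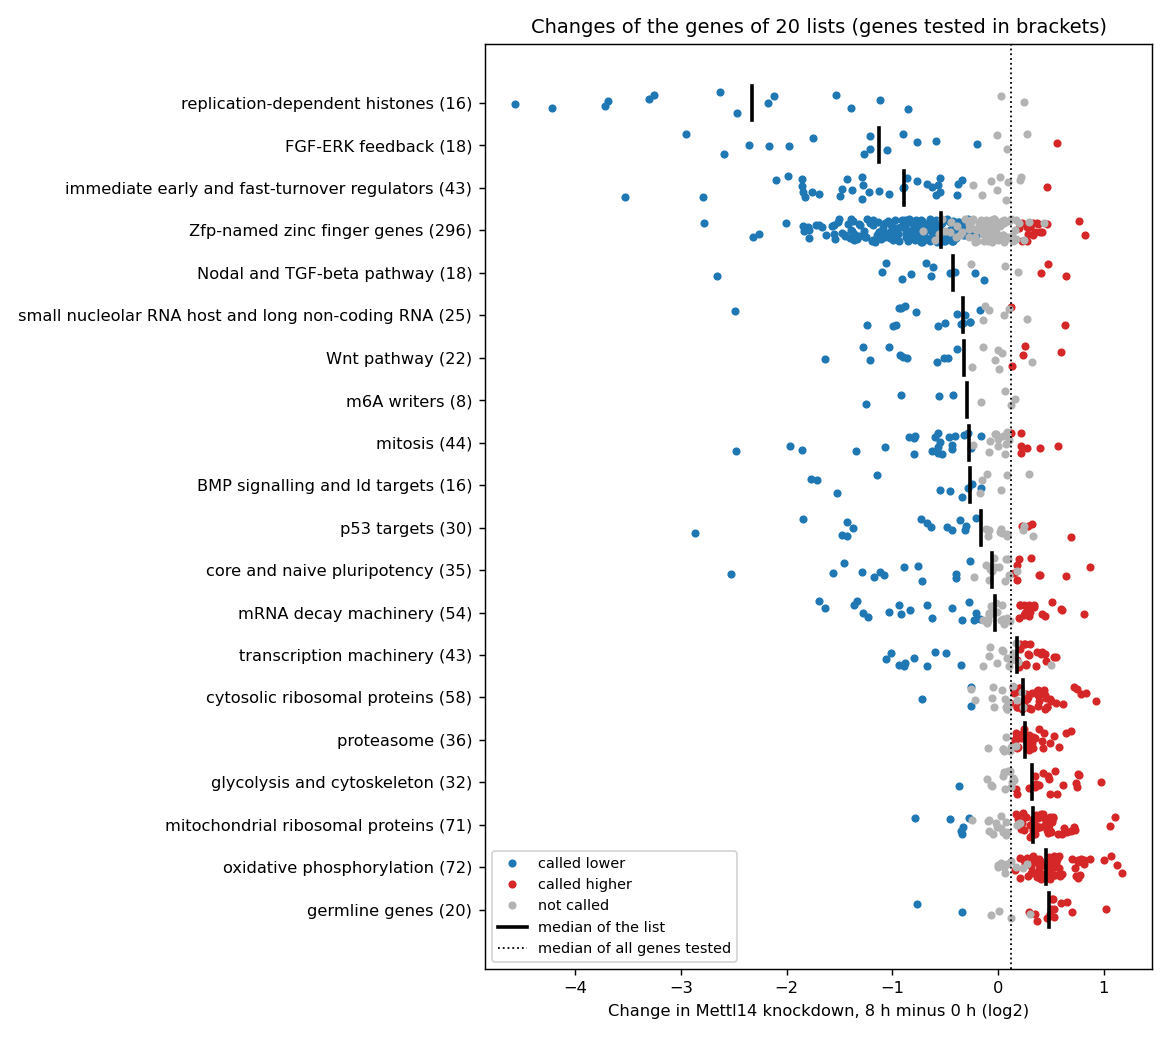
Log2 change from 0 to 8 h in Mettl14 knockdown for each gene tested in 20 lists, coloured by call, with the list's median as a black bar and the median of all genes, 0.13, as a dotted line. Histone, FGF feedback and immediate early genes lie far to the left, and oxidative phosphorylation genes lie to the right of the dotted line in most cases.

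Genes of energy metabolism and protein turnover stood higher relative to the other genes. Of 72 oxidative phosphorylation genes 62 stood higher (86.1%, against 36.9% of all genes), none was lower (against 19.2%) and 10 were not called. Their median was 0.45, which was 0.06 after the glycolysis shift and -0.13 after the ribosomal shift. Cox7a1, a subunit of cytochrome oxidase, gave 8.12 and 7.94 at 0 h, 8.92 and 8.97 at 4 h, and 9.14 and 9.27 at 8 h, 2.26-fold higher (adjusted p = 1.23e-06). The ATP synthase subunits Atp5mpl and Atp5e went from 8.89 and 8.60 to 9.79 and 9.96, and from 8.91 and 8.71 to 9.83 and 9.93. These 3 genes remained called after both shifts, and the lack of overlap between their times was a condition for naming them. Cox6b1 was higher by 0.79 ± 0.07 as deposited and by 0.20 after the ribosomal shift. Micos13, which shapes mitochondrial cristae, stood higher by 1.07 ± 0.05.

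Mitochondrial ribosomal proteins stood higher in 49 of 71 cases and lower in 6 (median 0.33, or -0.06 and -0.26 after the shifts). The shares were 69.0% higher and 8.45% lower, against 36.9% and 19.2% of all genes. Mrpl42 went from 9.93 and 9.34 to 10.63 and 10.84, and Mrpl47 from 8.13 and 7.36 to 8.60 and 8.998. The Mrpl47 call was lost when its probe sets were averaged (0.30, adjusted p = 0.107) and after the ribosomal shift (0.47, adjusted p = 0.0561). Of 58 cytosolic ribosomal proteins 39 stood higher (67.2%) and 3 were lower (5.17%), with a median of 0.24, or -0.16 and -0.35. Rps29 and Rpl37a were higher by 0.79 ± 0.06 and 0.83 ± 0.09, and by 0.20 and 0.25 after the ribosomal shift. Of 36 proteasome genes 28 stood higher (77.8%) and none was lower (median 0.25, or -0.14 and -0.33). Of 21 cholesterol synthesis genes 17 stood higher (81.0%) and 2 were lower (9.52%), with a median of 0.33, or -0.07 and -0.26. Sqle, an enzyme of that pathway, was lower at -1.15 ± 0.06.

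The other genes with the highest rises had little in common by name. Mylpf, a fast muscle myosin light chain, gave 6.05 and 6.54 at 0 h and 7.65 and 7.72 at 8 h, 2.62-fold higher (adjusted p = 2.17e-06). Klk1, Efcab2, Pla2g1b, Calcoco2, Mapk13, Rny1 and Cnih2 stood higher by 1.04 to 1.25 on the log2 scale, and by 0.45 to 0.66 after the ribosomal shift, under which each kept its call. Of these, Calcoco2 is an autophagy receptor, Mapk13 a p38 kinase and Rny1 a small cytoplasmic RNA. Of 20 germline genes tested 14 stood higher (70%, against 36.9% of all genes) and 2 were lower (10%, against 19.2%). Their median was 0.48, or 0.08 and -0.11 after the shifts. Dazl, an RNA-binding protein of germ cells, went from 6.55 and 6.65 to 7.61 and 7.64. In the 32 glycolysis and cytoskeleton genes 19 stood higher (59.4%) and 1 was lower (3.13%). Gapdh gave 13.49 and 13.52 and then 13.59 and 13.61, not called, and Myl6, a myosin light chain, was higher by 0.97 ± 0.13.

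Markers of the labelled cell type were checked on the same arrays. Of 10 genes that define embryonic stem cells 9 were above the filter, with Dppa5a below it. The summed linear signal of the 10 was 30190 and 30838 at 0 h and 25312 and 25389 at 8 h. Of the 9 tested, 3 fell (33.3%, against 19.2% of all genes), 1 stood higher (11.1%) and 5 were not called. Their median log2 change was -0.07. The deepest fall among them was that of the bright gene Sox2, at -2.53, so the sum does not describe the markers as a class. Lin28a, which binds let-7 precursors, stood higher by 0.40 ± 0.06 as deposited, and its change turned to -0.19 after the ribosomal shift and was 0.0022 after the glycolysis shift. Of 24 fibroblast markers on the array 21 were above the filter. Of these 10 stood higher (47.6%, against 36.9% of all genes) and none was lower. The summed linear signal of the 24 was 12259 and 12561 at 0 h and 16002 and 15837 at 8 h. Timp1, an inhibitor of matrix proteases, gave 9.74 and 9.75 and then 10.37 and 10.44, Acta2, smooth muscle actin, 10.21 and 10.25 and then 10.96 and 10.86, and Fstl1, a secreted glycoprotein, was higher by 0.62 ± 0.05. These 3 were not called after the ribosomal shift. The share of fibroblast RNA in the rises above was not tested, and in bulk RNA fewer cells of a type cannot be told apart from less RNA per cell.

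Measures that the call did not use are given as a description. The gene span in RefSeq was 15.9 kb at the median for the 559 genes that fell at least 2-fold, 28.7 kb for those that fell less, 19.1 kb for those that stood higher, and 20.4 kb for all genes tested. Protein-coding genes made up 84.7% of the genes that fell at least 2-fold and 95.9% of those that stood higher.

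The 8 h changes in the knockdown resembled those in scramble. Over the 14787 genes the change in Mettl14 knockdown and the change in scramble, which share no array, had r = 0.891 and rho = 0.807, where genes are not independent replicates. The number lower in both was 2365, which is 83.4% of the genes lower in the knockdown and 74.8% of those lower in scramble, and 74 genes were called in opposite directions. With Mettl3 knockdown the values were r = 0.945 and rho = 0.891, 2444 genes were lower in both (86.2% and 87.3%), and 8 were called in opposite directions. The standard deviation over genes of the difference in change was 0.236 against scramble and 0.157 against Mettl3 knockdown. In scramble itself 3162 genes fell (21.4%) and 5823 stood higher (39.4%), and in Mettl3 knockdown 2800 fell (18.9%) and 5467 stood higher (37%).

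**Figure D3:**
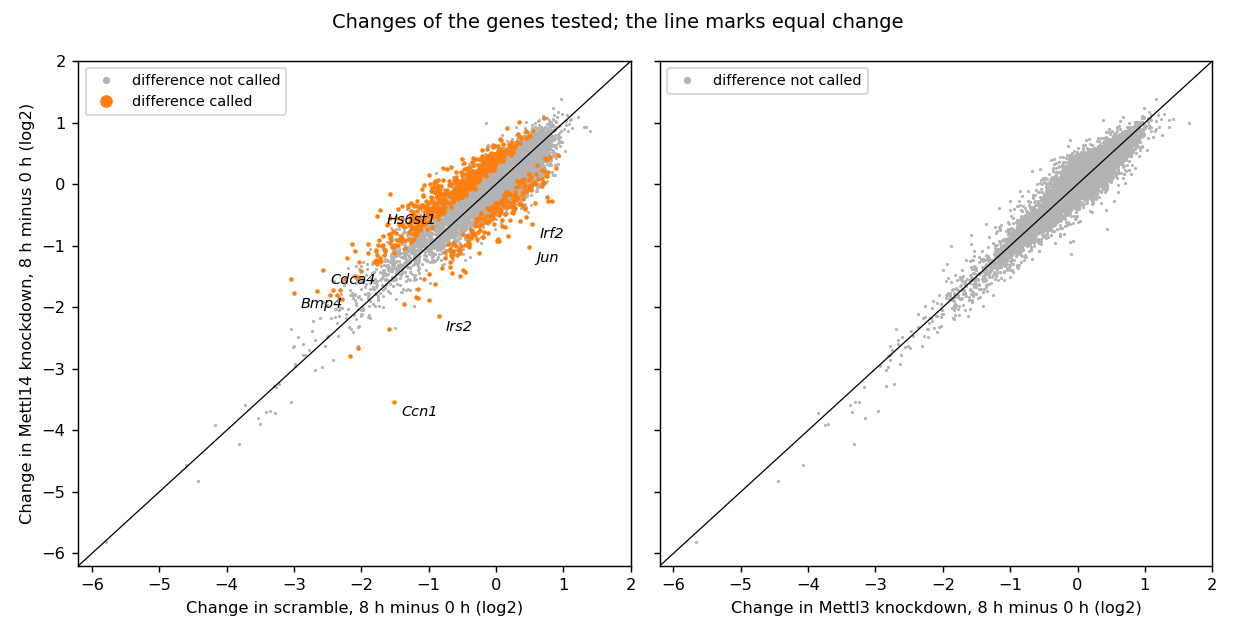
Log2 change from 0 to 8 h in Mettl14 knockdown (vertical) against that in scramble (left) and in Mettl3 knockdown (right), a point for each of 14787 genes, with a line of equal change. Orange points, the 740 genes whose change differed from scramble, lie on both sides of the line on the left, and no gene is orange on the right.

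The difference between the 8 h change in the knockdown and that in scramble was called for 740 genes (5%), with 531 higher in the knockdown (3.59%) and 209 lower (1.41%). At an unadjusted p under 0.05 there were 2783 (18.8%). This difference shows which genes changed otherwise in the Mettl14 knockdown cells than in the scramble cells, and its cause was not tested. The count of 531 was 243 without scramble 0 h replicate 1, 275 without scramble 0 h replicate 2, 283 without scramble 8 h replicate 2, 273 without knockdown 0 h replicate 2 and 280 without knockdown 8 h replicate 2. The count of 209 was 84, 95, 94 and 103 without the first 4 of these, and 139 without knockdown 0 h replicate 1. The counts were 53 and 12 when only the 8 arrays compared set the spread. With that spread Bmp4, Klf2, Fgf4, Id2, Wtap, Siah1a, Trib3, Nanp, Eed, Zic2, Ccn2, Nodal, Irs1, Efna5, Krt71 and Ptger4, described next, were not called. Differences and 0 h levels share arrays, so both are given side by side.

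Genes whose change was lower in the knockdown than in scramble were led by Ccn1. Its 0 h signal was 9.48 and 9.18 in scramble against 11.77 and 11.74 in the knockdown, and its 8 h signal was 7.90 and 7.74 against 8.26 and 8.18. The fall was thus 2.02 ± 0.13 larger in the knockdown on the log2 scale (adjusted p = 1.94e-05), from a higher start. Jun gave 8.08 and 8.05 in scramble at 0 h and 8.63 and 8.47 at 8 h, against 9.66 and 9.45 and then 8.56 and 8.50 in the knockdown. It thus rose in scramble (0.49) and fell in the knockdown (-1.03), and the difference in its change was -1.52 ± 0.13. The 8 h arrays of Jun overlapped between treatments, and the 0 h arrays did not.

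Both insulin receptor substrates were in this group. Irs2 gave 8.21 and 8.28 and then 7.42 and 7.37 in scramble, against 10.34 and 10.17 and then 7.94 and 8.29 in the knockdown, a difference of -1.29 ± 0.17. Irs1 gave 5.74 and 6.15 and then 6.46 and 6.32, against 7.25 and 7.26 and then 6.78 and 6.66, a difference of -0.98 ± 0.19. The scramble mean of Irs1 at 0 h, 5.94, lay below 6.07, the lowest mean signal of a gene tested. Irs1 passed the filter through brighter arrays, and whether that scramble signal exceeds background is not given in the sources used here. The transcription factor Irf2 differed by -1.18 ± 0.17, the early response gene Ier3 by -0.95 ± 0.09, and Irf1, an interferon-regulated factor, by -0.80 ± 0.09. Dusp1, Ccn2, Nodal, Zic2 and Eed differed by -0.77, -0.63, -0.61, -0.55 and -0.49. Nodal was not called without scramble 0 h replicate 2 (-0.54, adjusted p = 0.0711) or knockdown 0 h replicate 2 (-0.53, adjusted p = 0.0734), and Ccn2 was not called when its probe sets were averaged (-0.43, adjusted p = 0.102). Of the 43 immediate early genes 11 differed downward and 3 upward, with a median difference of -0.18 against 0.01 over all genes. The shares of all genes were 1.41% downward and 3.59% upward.

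The rest of the leading 8 were less secure. The axon guidance ligand Efna5 differed by -1.10 ± 0.22 (adjusted p = 0.0145), and lost the call without scramble 0 h replicate 2 (-0.96, adjusted p = 0.0602). The prostaglandin receptor Ptger4 differed by -1.03 ± 0.22 (adjusted p = 0.0219). Its adjusted p was 0.0857 without scramble 0 h replicate 1, 0.0573 without scramble 8 h replicate 1, 0.0814 without knockdown 0 h replicate 2 and 0.0631 without knockdown 8 h replicate 1, at differences of -0.95, -0.93, -0.82 and -0.91. The keratin gene Krt71 differed by -1.03 ± 0.27 (adjusted p = 0.0465), and was not called without any 1 of 7 of the 8 arrays, with adjusted p from 0.0566 to 0.142. Mettl14 itself differed by -0.96 ± 0.19 (adjusted p = 0.0139). It reached an adjusted p of 0.0522 without scramble 0 h replicate 1 (-0.95) and 0.0594 without knockdown 0 h replicate 2 (-0.84).

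Genes that fell less in the knockdown included naive pluripotency factors and signalling ligands. Of the 35 core and naive pluripotency genes 11 differed upward and none downward, with a median difference of 0.17. Over all genes 3.59% differed upward and 1.41% downward. Klf4 gave 9.83 and 9.93 and then 7.84 and 7.73 in scramble, against 8.69 and 8.67 and then 7.49 and 7.72 in the knockdown, a difference of 1.02 ± 0.14 (adjusted p = 0.00206). Tbx3, a T-box factor of the naive network, gave 9.92 and 9.80 and then 8.47 and 8.34, against 8.67 and 8.73 and then 8.33 and 8.28, a difference of 1.06 ± 0.12. Klf2 differed by 0.78 ± 0.12. For these genes the treatments differed at 0 h more than at 8 h.

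Bmp4 started higher in scramble, at 11.28 and 11.27 against 9.64 and 9.55, and reached 8.41 and 8.12 against 7.60 and 8.05, a difference of 1.23 ± 0.19. Fgf4 gave 11.19 and 11.13 and then 9.11 and 8.79 in scramble, and differed by 1.00 ± 0.13. Mycn gave 9.993 and 10.004 and then 7.92 and 7.88, close to the knockdown at 0 h and below it at 8 h, and differed by 0.61 ± 0.09. Id2 differed by 0.54 ± 0.08. The m6A writer subunit Wtap gave 9.504 and 9.413 and then 8.42 and 8.41 in scramble, and differed by 0.62 ± 0.09, with the treatments overlapping at 0 h and apart at 8 h.

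Hs6st1, which sulfates heparan chains that bind growth factors, differed more between treatments at 8 h than at 0 h. It gave 10.38 and 10.53 and then 8.78 and 8.66 in scramble, against 10.31 and 10.35 and then 9.92 and 9.90 in the knockdown, a difference of 1.31 ± 0.10 (adjusted p = 6.78e-05). S1pr2, a sphingosine-1-phosphate receptor, gave 9.70 and 9.71 and then 8.03 and 7.85, against 9.53 and 9.56 and then 8.97 and 9.09, a difference of 1.25 ± 0.11. Cdca4, a cell division gene, differed by 1.18 ± 0.15, and Siah1a, a ubiquitin ligase, by 1.17 ± 0.18. At 8 h the treatments did not overlap for Hs6st1 and S1pr2.

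Nanp, a phosphatase of sialic acid synthesis, had the highest difference of the named genes, 1.496 ± 0.33 (adjusted p = 0.0242). It was not called without scramble 0 h replicate 1 (1.24, adjusted p = 0.0967), scramble 8 h replicate 2 (1.47, 0.0761), knockdown 0 h replicate 2 (1.33, 0.0939) or knockdown 8 h replicate 2 (1.17, 0.0757), and was 0.91 when its probe sets were averaged, not called. Trib3, a pseudokinase of the amino acid stress response, differed by 1.15 ± 0.23 (adjusted p = 0.0158) and missed the threshold without scramble 0 h replicate 2 (0.98, adjusted p = 0.0626), knockdown 0 h replicate 1 (0.98, 0.0514) or knockdown 8 h replicate 2 (1.06, 0.0553). Of the 296 zinc finger genes 15 differed upward and 1 downward, with a median of 0.14, beside 3.59% of all genes upward and 1.41% downward. No histone, oxidative phosphorylation, cytosolic ribosomal protein or proteasome gene was called in this difference by limma. These lists held 16, 72, 58 and 36 genes tested, and 5% of all genes were called.

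**Figure D4:**
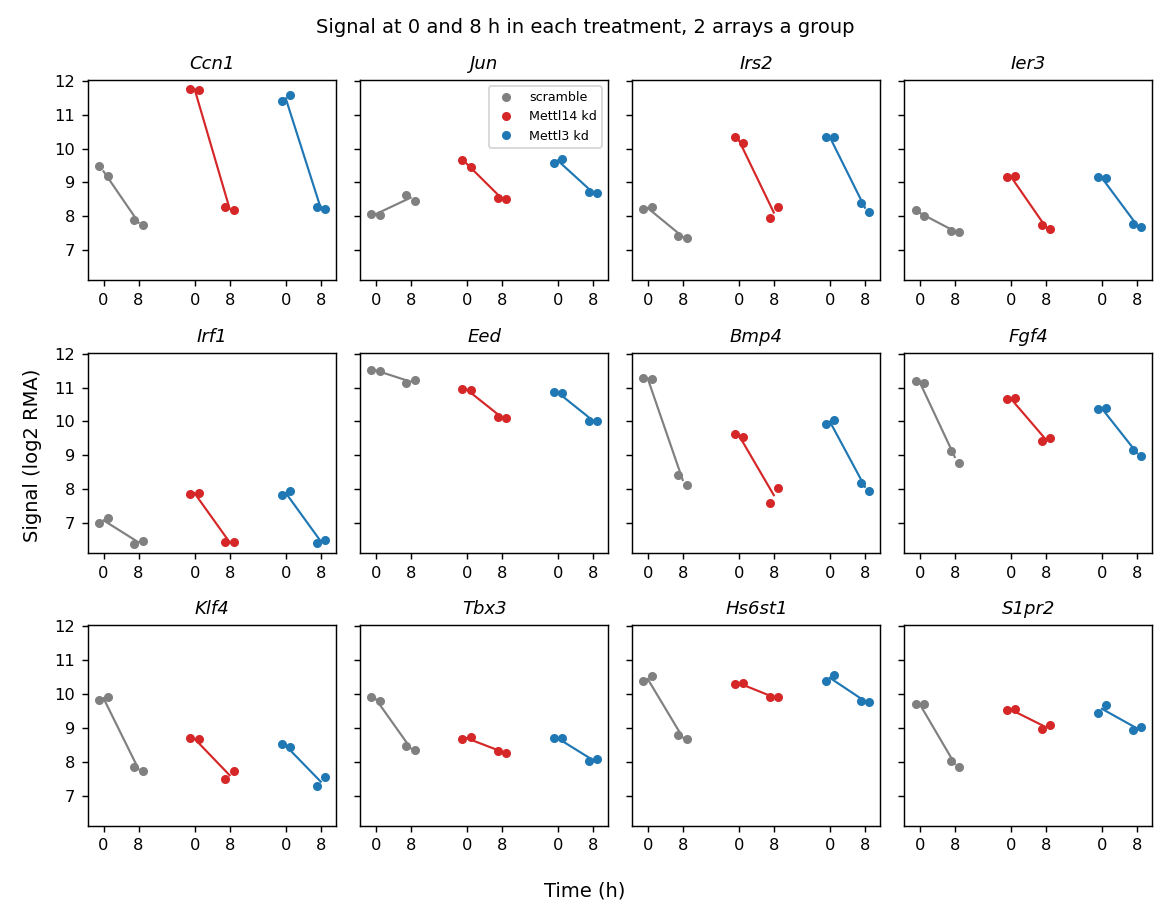
Signal (log2 RMA) of 12 genes at 0 and 8 h in scramble (grey), Mettl14 knockdown (red) and Mettl3 knockdown (blue), 2 arrays a group, with lines joining group means. Ccn1, Jun, Irs2 and Ier3 start higher in both knockdowns than in scramble, Bmp4, Klf4 and Tbx3 start lower, and Hs6st1 and S1pr2 differ less at 0 h than at 8 h, when they are higher in the knockdowns.

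No gene's 8 h change was called as different between Mettl14 and Mettl3 knockdown by limma, while 789 (5.34%) had an unadjusted p under 0.05. Other settings called between 0 and 13 genes, with 5 without knockdown 8 h replicate 2 and 1 each without Mettl3 knockdown 0 h replicate 1 and 8 h replicate 2. The change of Ccn1 was -3.53 in Mettl14 and -3.25 in Mettl3 knockdown, with a 95% interval of the difference from -0.57 to -0.00037. Jun changed by -1.03 and -0.95 (interval -0.37 to 0.21), Irs2 by -2.14 and -2.08 (-0.43 to 0.31), Bmp4 by -1.77 and -1.93 (-0.26 to 0.56), and Klf4 by -1.08 and -1.06 (-0.32 to 0.29). The intervals of Ccn1, of Cdca4, from 0.29 to 0.94, and of Siah1a, from 0.22 to 1.02, left out 0 before adjustment over genes. So did those of H2ac1, from -0.96 to -0.50 (adjusted p = 0.0509 by limma), and H2bc3, from -0.82 to -0.23, and those of H2ac15, Dusp5 and Mycn. The intervals of the histone genes H1f5, H2bc12, H2ac21 and H2ac10 held 0. Mettl14 changed by -0.92 in its own knockdown and by -0.06 in Mettl3 knockdown, an interval from -1.27 to -0.45.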

How the data were processed

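The members and gene lists were chosen with earlier results of these data known. Poly(A) RNA was hybridised to the arrays, per the labels' protocols. The deposited log2 signals, 1 per probe set, came from RMA; the submitters' processing notes name oligo for this step and give no version. RMA corrects background, equalises the arrays' probe distributions and summarises probes, so shared falls are hidden.

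Of 41345 probe sets, 23521 had 1 gene symbol in the platform annotation, 1814 had several and 16010 were not listed. The brightest probe set stood for a gene, and the fraction 0.333 of 22180 genes with the lowest mean over the 18 time-course arrays was left out. The 9 groups were fitted with limma 3.58.1 (R 4.3.3, lmFit and eBayes, two-sided, 9 residual degrees of freedom), and changes and differences of changes were contrasts. The number of arrays limits the precision. The fit was tested on simulated data. Promoters and microRNAs came from RefSeq (GRCm38.p6).

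Named genes were the 14 largest called changes each way with no overlap and the 8 largest differences each way against scramble, without microRNAs and predicted genes, plus list members. The alternatives were other filters, probe set means, trended and robust eBayes, array weights, replicate blocks, renormalisation, shifts to 2 lists, other array sets and leaving out each array.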

Additional observations from a re-analysis of the deposited data

Results flagged for a closer look

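Changes that differed between Mettl14 knockdown and scramble by the test of the difference itself were looked at again, and no explanation was tested. Those below 0 had a lower change in the knockdown than in scramble. They were Ccn1 (-2.02), Jun (-1.52), Irs2 (-1.29), Irf2 (-1.18), Efna5 (-1.10), Krt71 (-1.03), Ptger4 (-1.03), Irs1 (-0.98), Mettl14 (-0.96), Ier3 (-0.95), Irf1 (-0.80), Dusp1 (-0.77), Ccn2 (-0.63), Nodal (-0.61), Zic2 (-0.55) and Eed (-0.49). Jun and Irs1 among them rose in scramble and fell in the knockdown, where the rise of Irs1 started from a scramble mean of 5.94. That mean lay below 6.07, the lowest mean signal of a gene tested. Above 0 were Nanp (1.496), Hs6st1 (1.31), S1pr2 (1.25), Bmp4 (1.23), Cdca4 (1.18), Siah1a (1.17), Trib3 (1.15), Tbx3 (1.06), Klf4 (1.02), Fgf4 (1.00), Klf2 (0.78), Wtap (0.62), Mycn (0.61) and Id2 (0.54).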

How the results depend on the processing

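Arrays of equal replicate number did not deviate alike throughout Mettl14 knockdown. The replicate differences of Mettl14 knockdown correlated at -0.45 between 0 and 8 h, -0.10 between 0 and 4 h and 0.14 between 4 and 8 h. Between groups of different treatments they ran from -0.34 (Mettl14 with Mettl3 knockdown, both 0 h) to 0.34 (Mettl14 knockdown 8 h with Mettl3 knockdown 0 h). The main fit held no term for such shared deviations. With a replicate block within treatment the differences from scramble called were 289 higher and 110 lower, and with the 0 h numbers crossed, chosen after seeing the data, 438 and 180. A replicate block shared by all treatments gave 5401 genes higher and 2805 lower at 8 h.

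Without the filter the difference from scramble had 254 genes higher and 91 lower and the 8 h against 4 h comparison 759, where more genes were tested. Array weights gave 326 and 106. Spread from the compared arrays alone gave 53 and 12, with 197 for 8 h against 4 h, and all 26 arrays gave 797, 371 and 1813. For the difference from Mettl3 knockdown, 5 genes were called with more genes filtered out, 13 with trended and robust eBayes, 4 after renormalisation and 11 with all 26 arrays. Renormalisation gave 70 genes at least 2-fold higher. The glycolysis shift gave 701 genes higher, 7808 lower, 0 and 1270 at least 2-fold, 4025 for 8 h against 4 h and 297 differences upward. The ribosomal shift gave 112, 11312, 0 and 1861, with 10304 for 4 h against 0 h, 1876 for 8 h against 4 h, and 187 and 100 differences. The cause of these changes was not tested.

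Leaving out an array gave 4686 to 4902 genes higher and 2383 to 2728 lower at 8 h, 22 to 58 and 464 to 665 at least 2-fold, 5039 to 5586 at 4 h, 416 to 1290 for 8 h against 4 h, 243 to 594 and 84 to 190 differences from scramble, and 0 to 5 from Mettl3 knockdown. Malat1 turned to 0.19 with averaged probe sets and Lin28a to -0.19 with the ribosomal shift.

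For the 140 genes whose 8 h change is named, values under the other alternatives were compared with the main fit. Direction was followed only for genes called in the main fit, so a gained call can have either direction. Of 1811 values, 1788 kept the side of the threshold and, where called, the direction, while 7 lost the call, 14 gained it and 2 turned. With an array left out this held for 558 of 560. For the 30 named differences from scramble it held for 353 of 385 and 217 of 240, and the rest lost the call. With the replicate block within treatment the differences of Mettl14, Irs1, Krt71 and Nanp were among those lost.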
